A study of Homo sapiens with 8 samples.

Results

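The genes described here are 10 WNT pathway genes followed across the MCF10A breast cancer progression lines M1, M2, M3 and M4. The ligand genes are WNT5A, WNT5B, WNT7A, WNT7B and WNT10A, and the secreted antagonist genes are SFRP1 and DKK1. DKK3 is a divergent gene of the Dickkopf family, and AXIN2 and LEF1 are feedback and target genes. All 10 were listed by name, with earlier results of these data known, and were found among the 56632 genes of the table. On hg19 (GENCODE 44 mapped to GRCh37), WNT7A lies at chr3:13857755-13921568 and WNT5A at chr3:55499743-55524567, both on the minus strand. WNT5B lies at chr12:1639057-1756378 and WNT10A at chr2:219745574-219764303, both on the plus strand. WNT7B lies at chr22:46316246-46373042, AXIN2 at chr17:63524681-63557766, LEF1 at chr4:108968701-109090112 and DKK3 at chr11:11977754-12031316, all on the minus strand. DKK1 lies at chr10:54074041-54077802 on the plus strand, and SFRP1 is on chromosome 8. Each value is the sum over the exons of the gene.

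WNT proteins are secreted, lipid-modified ligands that bind Frizzled receptors. In the canonical branch, a WNT bound to Frizzled and to an LRP co-receptor stops the destruction of beta-catenin, which then acts with TCF and LEF proteins in the nucleus. Other WNTs, with WNT5A as the best known, act mostly through beta-catenin independent branches that govern cell polarity and movement. SFRP proteins bind WNTs outside the cell, and DKK1 blocks the LRP co-receptor. In the mammary gland, WNT signalling takes part in duct branching and in the upkeep of basal progenitor cells.

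All 4 lines descend from MCF10A, a spontaneously immortalized, non-tumorigenic human mammary epithelial cell line. M1 is MCF10A itself. M2 (MCF10AT1k.cl2) carries the activated oncogene T24-HRAS, brought into MCF10A by transfection, and was passed through mice as a xenograft, where it can form lesions short of carcinoma. M3 (MCF10Ca1h) and M4 (MCF10CA1a.cl1) came from carcinomas of M2 xenografts, M3 giving well-differentiated carcinomas and M4 poorly differentiated ones that can colonize the lung. Each stage is 1 cell line, so stage and line cannot be told apart. Cells of every line were grown as acini in Matrigel for 8 days with 2% horse serum, hydrocortisone, cholera toxin and insulin. EGF at 10 ng/ml was present for M1 and M2 and left out for M3 and M4, so the line and the EGF supply cannot be told apart in any comparison of M1 or M2 with M3 or M4. Poly(A) RNA was sequenced from 2 biological replicates per line, giving 8 libraries.

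The deposited counts summed to between 69669970 and 107350344 per library. All 6 basal epithelial markers looked at, among them KRT5 and TP63, were above 1 CPM (counts per 1000000) in every library. Their levels differed between lines. KRT14 went from 99.7 and 91.1 CPM in M3 to 2.30 and 2.74 in M4, and LAMB3 from 758 and 807 to 1574 and 1558. The luminal list (ESR1, PGR, GATA3 and FOXA1) summed to 87.6 to 105 CPM in M1 and 32.4 to 32.8 in M4, with GATA3 lower and FOXA1 higher in M4. The endothelial markers CDH5 and VWF together stayed at or below 0.326 CPM, PTPRC and CD3E were listed at 0 in M2, M3 and M4, and COL1A2 was listed at 0 in every library. The summed fibroblast markers ran from 9.36 to 60.3 CPM (M1), 72.7 to 74.8 (M2), 16.2 to 17.8 (M3) and 6.47 to 7.61 (M4). The leukocyte list summed to 4.06 to 9.55 CPM in M1 and 39.0 to 51.4 CPM in M4, with CD68 its only gene above 0 there. Their part in the results was not tested. HRAS gave 154 and 139 CPM for M1, 160 and 154 for M2, 269 and 327 for M3, and 335 and 352 for M4, so its level did not separate M2 from M1. The 2 replicates of a line correlated across genes at a Spearman rho of 0.975 (M1), 0.993 (M2), 0.982 (M3) and 0.987 (M4). A chi-square of their counts per degree of freedom was 235 (M1), 6.65 (M2), 295 (M3) and 113 (M4), so the M2 replicates were the closest by both measures. A supplementary table of the study exchanges the libraries labelled M1 replicate 2 and M2 replicate 1. The labels deposited with the data were used here, and the exchanged assignment and a fit without those 2 libraries were run as alternatives. As labelled, the M2 pair had the highest rho of all library pairs (0.9934) and the M1 pair stood at 0.9749, while the exchanged pairs stood at 0.9675 (M1 replicate 1 with M2 replicate 1) and 0.9711 (M1 replicate 2 with M2 replicate 2).

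The sequences just upstream of 3 of these genes are shown because WNT7A and WNT10A moved in opposite directions across the lines and DKK1 is the one of them with the TCF and LEF letters. Each is the 250 bases before the annotated start on GRCh38.p14, from RefSeq, written 5′ to 3′ on the strand of the gene. Capitals mark matches on either strand to TATAAA, to GGGCGG (the GC box), to CTTTGAA or CTTTGAT (the site of TCF and LEF proteins) and to TGACTCA or TGAGTCA (the AP-1 site), and no marked matches overlap. They are WNT7A at chr3:13880072-13880321 (minus strand), WNT10A at chr2:218880602-218880851 (plus strand) and DKK1 at chr10:52314031-52314280 (plus strand).
WNT7A: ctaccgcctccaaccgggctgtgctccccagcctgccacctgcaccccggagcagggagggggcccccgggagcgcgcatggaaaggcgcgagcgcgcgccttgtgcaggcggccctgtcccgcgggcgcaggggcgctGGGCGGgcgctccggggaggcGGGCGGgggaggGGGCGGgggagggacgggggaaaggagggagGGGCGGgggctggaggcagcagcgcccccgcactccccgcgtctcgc
WNT10A: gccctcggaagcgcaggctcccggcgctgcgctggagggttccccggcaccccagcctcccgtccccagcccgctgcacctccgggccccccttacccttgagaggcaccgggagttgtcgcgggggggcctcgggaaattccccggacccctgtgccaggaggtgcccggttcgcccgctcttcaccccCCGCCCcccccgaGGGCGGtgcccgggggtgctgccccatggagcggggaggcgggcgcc
DKK1: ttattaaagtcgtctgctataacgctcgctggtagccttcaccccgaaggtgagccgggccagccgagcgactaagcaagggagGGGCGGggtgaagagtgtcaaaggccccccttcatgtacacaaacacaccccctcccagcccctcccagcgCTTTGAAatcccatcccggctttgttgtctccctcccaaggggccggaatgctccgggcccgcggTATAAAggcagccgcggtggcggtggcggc

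The table held upstream sequence for 6 of the 10 genes, as 8 start sites. GGGCGG was found in 6 of the 8 start sites, against 42.6% of the 35116 promoters of the table. WNT7A held 4 copies within 111 bases of its start, and WNT10A held 2, 1 of them on the opposite strand, within 60 bases. The TCF and LEF letters were found in 5.94% of all promoters and, among these genes, upstream of DKK1, where CTTTGAA began 95 bases before the start. DKK1 also held TATAAA, beginning 30 bases before the start, and 1 of the 2 start sites of WNT5B held it on the opposite strand, against 10.7% of all promoters. No AP-1 match was found upstream of the 6 genes (4.2% of all promoters). These matches are descriptions of letters, with no measure of binding.

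Per kilobase of exon, the antagonists SFRP1 and DKK1 were the most abundant of the 10 genes in every line. SFRP1 ranged over the lines from 27.5 to 107 RPKM (CPM divided by kilobases of exon) and DKK1 from 11.96 to 97.7, while the highest mean of any of the ligand genes was 6.46 for WNT7B in M4. SFRP1 was above DKK1 in both libraries of M2 and of M3. In M1 the libraries were split, with SFRP1 at 31.4 and 55.0 RPKM and DKK1 at 52.2 and 10.7. In M4 both libraries had DKK1 above SFRP1, with DKK1 at 97.7 ± 9.93 RPKM (SD, n = 2) and SFRP1 at 27.5 ± 0.00480. WNT5B, AXIN2 and DKK3 stayed under a mean of 0.1 RPKM in every line. The levels of all 10 genes by library are plotted in CPM, each on its own scale.

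**Figure D1:**
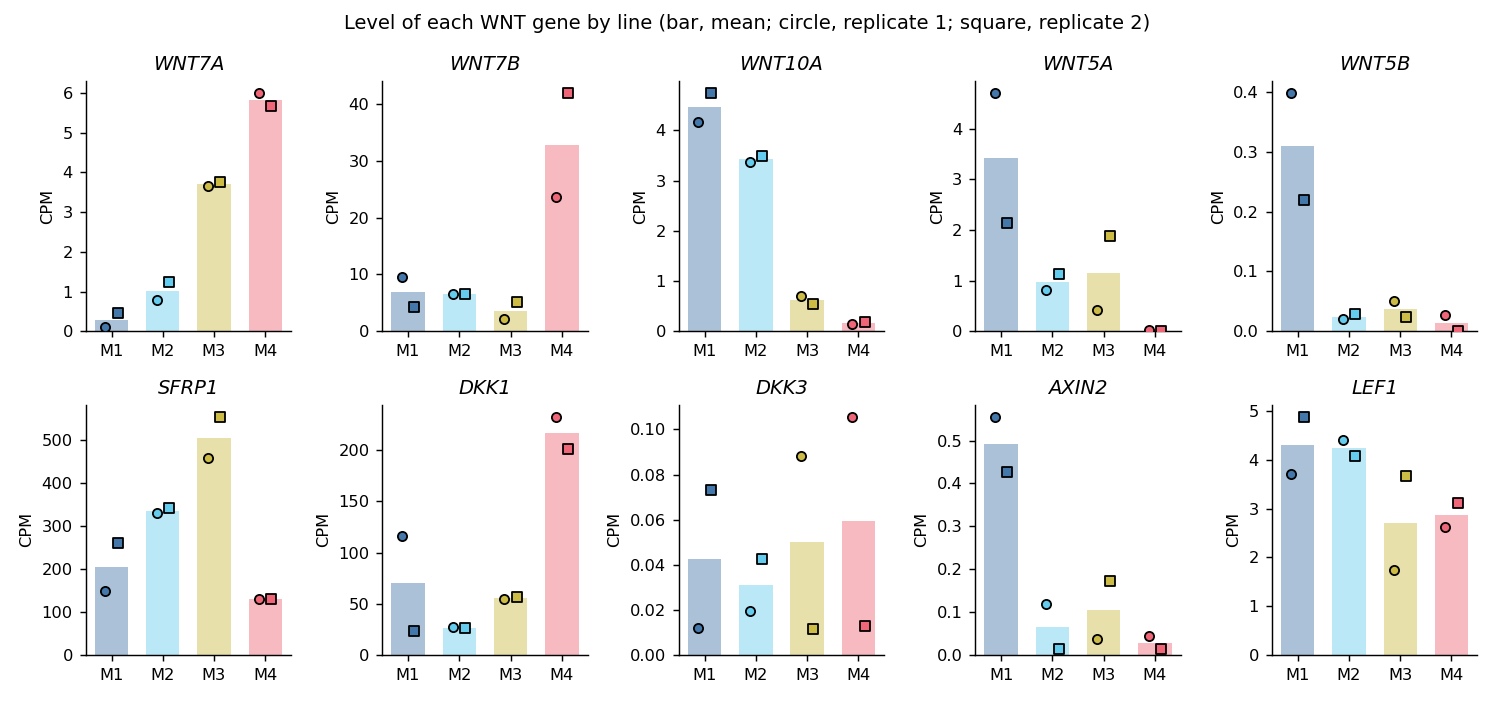
Level of each of the 10 WNT pathway genes in the 8 libraries, in CPM with TMM library sizes, with a separate linear vertical axis from 0 for each gene. Bars are the means of the 2 replicates, circles replicate 1 and squares replicate 2. WNT7A was higher in each line from M1 to M4 and WNT10A lower, while DKK1 was split in M1 (116 and 23.8 CPM).

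WNT7A, a ligand linked to epithelial patterning, was lowest in M1 and highest in M4. The M1 libraries gave 0.0967 and 0.451 CPM, those of M2 0.786 and 1.24, those of M3 3.66 and 3.77, and those of M4 6.001 and 5.66. No line overlapped the next. In bulk RNA, a change in level per cell and a change in the share of expressing cells cannot be told apart. It rose in M3 against M1 by 3.76 ± 0.64 on the log2 scale (SE, 13.5-fold, adjusted p = 0.00681) and in M4 against M1 by 4.41 ± 0.65 (21.2-fold, adjusted p = 0.00257). It also rose in M4 against M2, by 2.53 ± 0.59 (adjusted p = 0.0206). The step from M3 to M4, 0.65 ± 0.55 on the log2 scale, did not pass (adjusted p = 0.446), nor did M2 against M1 (1.87 ± 0.61, adjusted p = 0.122) or M3 against M2 (1.88 ± 0.58, adjusted p = 0.105). M3 against M2 was called in 5 of the 16 alternatives (DESeq2, no filter on low counts, the 2 lines alone and without either M1 library, at 1.88 to 1.89), with adjusted p from 0.000411 to 0.505 over the 16. M2 against M1 was called in 3 (DESeq2 at 1.87, no filter at 1.88 and without M1 replicate 2 at 3.36). The size against M1 rested on few counts there (8 and 37). Without M1 replicate 1 the M4 value was 3.70 and the M3 value 3.04, and without M1 replicate 2 they were 5.89 and 5.25, all still called. The exchanged assignment took the call from M3 against M1 (3.06). The M4 against M2 call was lost without either library of M2 or either of M4 (log2 fold changes of 2.23 without M2 replicate 1, 2.89 without M2 replicate 2, 2.49 without M4 replicate 1 and 2.59 without M4 replicate 2) and under the exchange (2.79).

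WNT7B, the close paralog of WNT7A and a ligand of the canonical branch in several epithelia, was high in M4 only among these lines, without a graded order. The M1 libraries gave 9.63 and 4.29 CPM, those of M2 6.49 and 6.55, those of M3 2.16 and 5.12, and those of M4 23.7 and 42.0. Both M4 libraries lay above every other library, and M1 and M2 overlapped. WNT7B was 9.01-fold higher in M4 than in M3 (log2 3.17 ± 0.54, adjusted p = 0.0107), 4.71-fold higher than in M1 (2.24 ± 0.52, adjusted p = 0.0157) and 5.03-fold higher than in M2 (2.33 ± 0.52, adjusted p = 0.0187). M1, M2 and M3 did not differ past the test from one another (log2 fold changes from -0.93 to -0.09). The M4 against M3 call was kept in all 16 alternative fits, and its size rose to 3.92 without M3 replicate 2. The call against M1 was lost without M1 replicate 2 (1.77) and without M4 replicate 2 (1.79), and the value was 2.95 without M1 replicate 1. The call against M2 was lost without M2 replicate 1 (2.32), M2 replicate 2 (2.34) or M4 replicate 2 (1.88). In the fit without the 2 libraries in question both were lost as well (1.77 and 2.32).

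WNT10A, a ligand known for its roles in skin appendages and teeth, ran the other way. The M1 libraries gave 4.17 and 4.75 CPM, those of M2 3.37 and 3.48, those of M3 0.707 and 0.540, and those of M4 0.141 and 0.179. No line overlapped the next, and M1 and M2 were the high pair. WNT10A fell in M3 against M1, at a log2 fold change of -2.84 ± 0.34 (7.14-fold lower, adjusted p = 0.00186), and in M4 against M1, at -4.80 ± 0.38 (27.8-fold lower, adjusted p = 0.000249). It also fell in M4 against M2, at -4.42 ± 0.37 (21.4-fold lower, adjusted p = 0.000589). These 3 calls were kept in all 16 alternative fits. It fell too in M3 against M2 (-2.46 ± 0.33, adjusted p = 0.00781) and in M4 against M3 (-1.96 ± 0.35, adjusted p = 0.0116), while M2 against M1 did not pass (-0.38 ± 0.31, adjusted p = 0.503). The M3 against M2 call was lost without M2 replicate 1 (-2.48), without M2 replicate 2 (-2.43) and without both libraries in question (-2.48). The M4 against M3 call was lost without M4 replicate 1 (-1.79) and when those 2 lines were fitted alone (-1.94). WNT10A was the only one of the 9 tested genes called in 5 of the 6 comparisons.

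WNT5A, the leading ligand of the beta-catenin independent branch, was near 0 in M4. M1 libraries held 389 and 175 counts (4.70 and 2.13 CPM), M2 libraries 82 and 79 (0.805 and 1.12 CPM), M3 libraries 33 and 163 (0.417 and 1.87 CPM) and M4 libraries 2 and 0. Both M4 libraries lay below all others, and M2 and M3 overlapped. Summed over replicates, M1 held 328 times as many counts as M4 after scaling (exact 95% counting interval 90.3 to 2714), M2 89.5 times (24.4 to 746) and M3 113 times (30.8 to 939). The intervals cover counting error only. In the fit WNT5A fell in M4 against M1 at a log2 fold change of -8.20 ± 1.16 (adjusted p = 0.00216), and this call was kept in all 16 alternatives. Its size was -7.50 without M1 replicate 1, -11.15 without M4 replicate 1 and -7.47 without M4 replicate 2.

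WNT5A also fell in M4 against M2 (-6.37 ± 1.14, adjusted p = 0.00785) and in M4 against M3 (-6.62 ± 1.14, adjusted p = 0.0103). The first of these was -9.32 without M4 replicate 1, and its call was lost without M4 replicate 2 (-5.64). The M4 against M3 call was lost without either M4 library (-9.58 without replicate 1, -5.91 without replicate 2), and without M3 replicate 1 or 2 the value was -7.34 or -5.17. M2 and M3 did not differ from M1 past the test, at log2 fold changes of -1.83 ± 0.76 (adjusted p = 0.203) and -1.58 ± 0.75 (adjusted p = 0.173). Both were called with no filter on low counts (-1.82 and -1.57) and in no other alternative.

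WNT5B, the paralog of WNT5A, was seen mainly in M1, with 33 and 18 counts there (0.399 and 0.220 CPM). The other lines held 2 and 2 counts (M2), 4 and 2 (M3) and 3 and 0 (M4). It passed the filter on low counts only through M1, so a lower level elsewhere came with its being tested. After scaling, M1 held 19.8 times the counts of M4 (exact 95% counting interval 6.39 to 99.02), and the fitted log2 fold change was -4.25 ± 1.10 (adjusted p = 0.0225). The call was lost without M1 replicate 1 (-3.76), M1 replicate 2 (-4.63), M2 replicate 1 (-4.26), M2 replicate 2 (-4.27) or M4 replicate 2 (-3.46), and the value was -7.69 without M4 replicate 1. It was also lost under the exchanged assignment (-3.69) and without both libraries in question (-4.62).

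SFRP1, a secreted decoy that binds WNTs, was highest in M3 and lowest in M4. Per library, the CPM values were 149 and 261 (M1), 329 and 342 (M2), 457 and 554 (M3) and 130 and 130 (M4). No line overlapped the next in the order M3, M2, M1, M4. M2 against M1 (0.71 ± 0.25 on the log2 scale, adjusted p = 0.143) and M3 against M2 (0.59 ± 0.25, adjusted p = 0.214) did not pass. Without M1 replicate 2, M2 against M1 was 1.18. SFRP1 was 3.87-fold lower in M4 than in M3 (log2 -1.95 ± 0.26, adjusted p = 0.00460), and this call was kept in all 16 alternatives. It was 2.57-fold lower in M4 than in M2 (-1.36 ± 0.25, adjusted p = 0.00902) and 2.47-fold higher in M3 than in M1 (1.30 ± 0.25, adjusted p = 0.0111). M4 against M1 did not pass (-0.65 ± 0.25, adjusted p = 0.0824), so the loss in M4 was measured against M2 and M3 and not against the parental line. The M4 against M2 call was lost without M2 replicate 1 (-1.39), M2 replicate 2 (-1.34), M4 replicate 1 (-1.36) or M4 replicate 2 (-1.34) and under the exchange (-1.21). The M3 against M1 call was lost without M1 replicate 1 (0.96), under the exchange (1.08) and when those 2 lines were fitted alone (1.30).

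DKK1, the secreted blocker of LRP co-receptors and itself a known WNT target, was highest in M4. The M1 libraries gave 116 and 23.8 CPM, those of M2 26.9 and 26.2, those of M3 54.3 and 57.0, and those of M4 233 and 201. Both M4 libraries lay above every other library, whereas the 2 libraries of M1 lay on either side of M2 and M3. DKK1 was 8.17-fold higher in M4 than in M2 (log2 3.03 ± 0.63, adjusted p = 0.0159). This call was lost without M2 replicate 1 (3.05), M2 replicate 2 (3.01), M4 replicate 1 (2.93) or M4 replicate 2 (3.15). M4 against M3 (1.96 ± 0.60, adjusted p = 0.0662) and M4 against M1 (1.64 ± 0.60, adjusted p = 0.0759) did not pass. M4 against M3 was called in 6 of the 16 alternatives, at log2 fold changes of 1.96 to 1.99: DESeq2, no filter on low counts, the 2 lines alone, without either M1 library and without both libraries in question. Over the 16, its adjusted p ran from 3.54e-20 to 0.221. The 3.54e-20 came from the fit with no filter, at the size of the main fit (1.96), so the gain lay in the fitted error. M4 against M1 was called by DESeq2 (1.65) and with no filter (1.64). M3 against M2 did not pass (1.07 ± 0.59, adjusted p = 0.343) but was called in 4 alternatives (1.07 in each): no filter, the 2 lines alone and without either M1 library.

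Against M1, DKK1 rested on which M1 library was used. M4 against M1 was 3.21 without M1 replicate 1, a call, and 0.91 without M1 replicate 2. M3 against M1 changed sign, from -0.33 ± 0.59 with both to 1.23 without M1 replicate 1 and -1.05 without M1 replicate 2, each of them called. M2 against M1 was -1.39 ± 0.60 with both (adjusted p = 0.216), 0.16 without M1 replicate 1 and -2.12, a call, without M1 replicate 2. M2 against M1 was also called by DESeq2 (-1.40), with no filter on low counts (-1.39) and without both libraries in question (-2.14). M1 replicate 1 was also the library with the lower SFRP1, the lower WNT7A and the higher WNT7B and WNT5A of the M1 pair.

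DKK3, a divergent member of the Dickkopf family, was not tested. Its counts were 1 and 6 (M1), 2 and 3 (M2), 7 and 1 (M3) and 12 and 1 (M4). In GENCODE 44, a later release than that of the counting, its exons share 5681 bases with those of USP47 on the opposite strand. USP47 had up to 6800 counts in a library, and whether the counting used strand is not given in the sources used here. The DKK3 replicates of every line overlapped those of the next, and no difference was detectable at this depth.

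AXIN2, a scaffold of the beta-catenin destruction complex that is induced by WNT signalling and damps it, was low throughout. Its counts were 46 and 35 (M1), 12 and 1 (M2), 3 and 15 (M3) and 5 and 1 (M4), so that the M1 libraries (0.556 and 0.427 CPM) lay above all others. After scaling, M1 held 15.7 times the counts of M4 (exact 95% counting interval 6.91 to 44.03). Like WNT5B, it passed the filter on low counts through M1, where it is high, so a lower level elsewhere came with its being tested. The fit gave M4 against M1 a log2 fold change of -3.97 ± 1.13 for AXIN2 (adjusted p = 0.0314), a call lost without M1 replicate 1 (-3.76), M1 replicate 2 (-4.15), M4 replicate 1 (-5.10) or M4 replicate 2 (-3.42), under the exchange (-3.43) and without both libraries in question (-4.15). M2 and M3 against M1 did not pass (-2.80 ± 1.04 and -2.20 ± 1.006, adjusted p = 0.163 and 0.156). M2 against M1 was called with no filter on low counts (-2.80) and in no other alternative.

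LEF1, a transcription factor that carries beta-catenin to DNA and is also a WNT target, passed in none of the 6 comparisons. Per library, the CPM values were 3.72 and 4.89 (M1), 4.42 and 4.08 (M2), 1.74 and 3.67 (M3) and 2.62 and 3.13 (M4). M3 against M1 was -0.67 ± 0.39 (adjusted p = 0.251) and M4 against M1 was -0.59 ± 0.39 (adjusted p = 0.285). The M1 and M2 libraries lay above those of M3 and M4, by less than the test could call.

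Of the 9 tested genes, 6 were called in M4 against M1 (WNT7A and WNT7B higher; WNT5A, WNT5B, WNT10A and AXIN2 lower), where 20.7% of all 18431 genes tested were called (9.48% higher and 11.2% lower). In M4 against M2, 6 were called (DKK1, WNT7A and WNT7B higher; SFRP1, WNT5A and WNT10A lower), against 13.9% of all genes (6.98% higher, 6.94% lower). In M4 against M3, 4 were called (WNT7B higher; SFRP1, WNT5A and WNT10A lower), against 10.3% (3.99% higher, 6.3% lower). M3 against M1 gave 3 (SFRP1 and WNT7A higher, WNT10A lower), against 13.5% (8.02% higher, 5.51% lower). M3 against M2 gave 1 (WNT10A lower), against 4.15% (2.95% higher, 1.2% lower). M2 against M1 gave 0 by edgeR, against 3.37% (2.26% higher, 1.11% lower), with 5 of the 9 at an unadjusted p under 0.05 and 2, DKK1 and WNT7A, called by DESeq2. WNT5B and AXIN2 passed the filter on low counts only through M1, where they are high, so their lower calls in M4 against M1 say nothing against the background share. The 6 comparisons share libraries. The plot of changes by comparison shows the sizes with their errors.

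**Figure D2:**
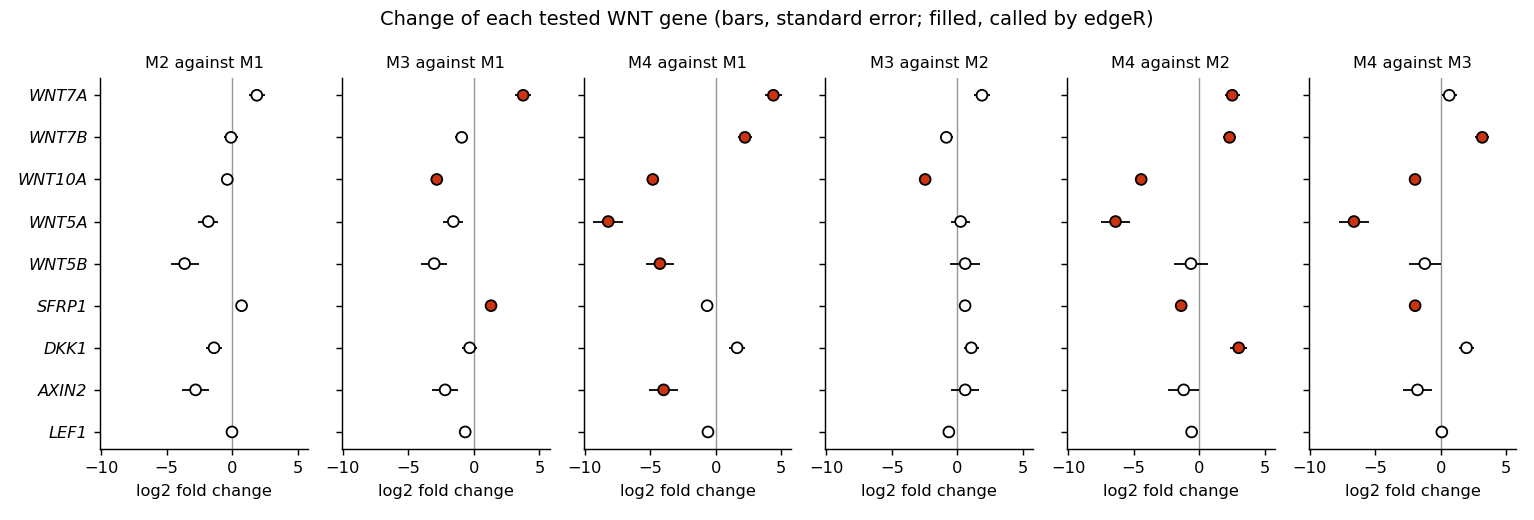
Log2 fold change of the 9 tested genes in each of the 6 comparisons of lines, with bars for the standard error (edgeR, 2 replicates per line, 1 fit over all 8 libraries). Filled points are calls (adjusted p under 0.05, fold change over 1 on the log2 scale in size). M2 against M1 has no filled point, and the lowest point is WNT5A in M4 against M1 at -8.20.

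**Figure D3:**
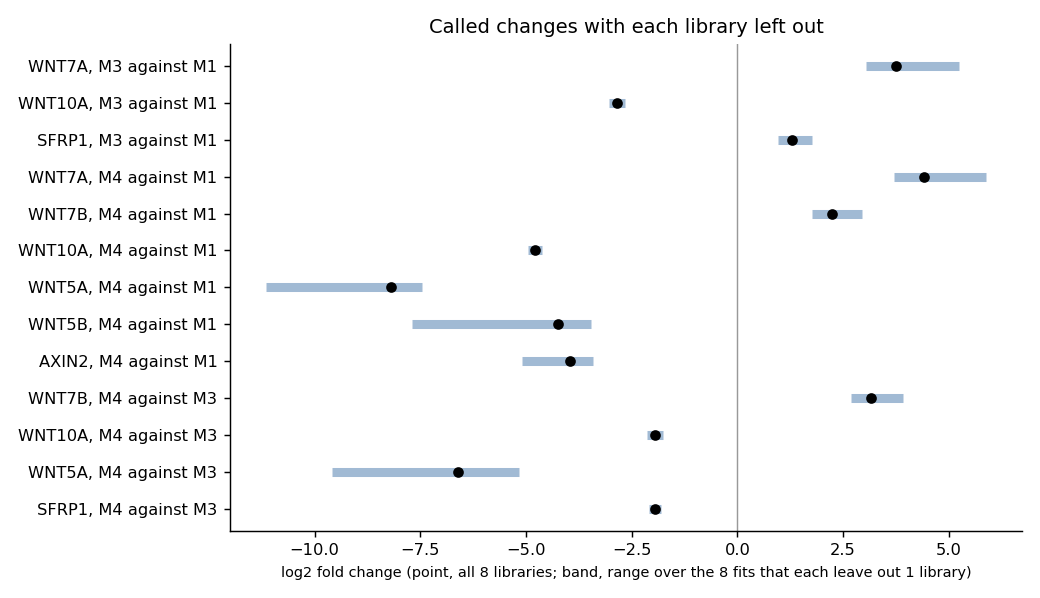
Log2 fold changes called in M3 against M1, M4 against M1 and M4 against M3, with points for the fit on all 8 libraries and bands for the range over the 8 fits that each leave out 1 library. No band crosses 0, and the bands of WNT5A and WNT5B in M4 against M1 reach -11.15 and -7.69.

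The makeup of WNT ligand mRNA, per length of exon, differed between the lines. Over the 19 ligand genes of the table, M1 summed to 6.84 ± 0.91 RPKM, M2 to 6.03 ± 0.24, M3 to 9.24 ± 3.50 and M4 to 25.2 ± 4.25 (SD, n = 2). In M1, WNT10A gave 19.1% and 26.2% of the sum in the 2 libraries, and WNT7B gave 25.3% and 13.6%. In M2, WNT10A still gave 18.6% and 20.4%. Its part was 3.58% and 1.58% in M3, and 0.217% in M4.

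WNT7B made up 6.29% and 8.61% of the sum in M3 but 21.0% and 29.3% in M4. WNT7A reached its highest part in M3 (11.96% and 7.10%), although its own level was higher in M4 (1.29 ± 0.053 RPKM against 0.820 ± 0.016). WNT5A fell from 8.78% and 4.82% of the sum in M1 to 0.0111% and 0% in M4. Most of the difference between the M4 and M1 sums lay in WNT9A, a ligand outside the 10 genes, at 59.8 and 66.9 CPM there against 4.11 and 3.65 in M1 (log2 4.03 ± 0.38, adjusted p = 0.000466). WNT9A made up 67.2% and 59.2% of the M4 sum.

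**Figure D4:**
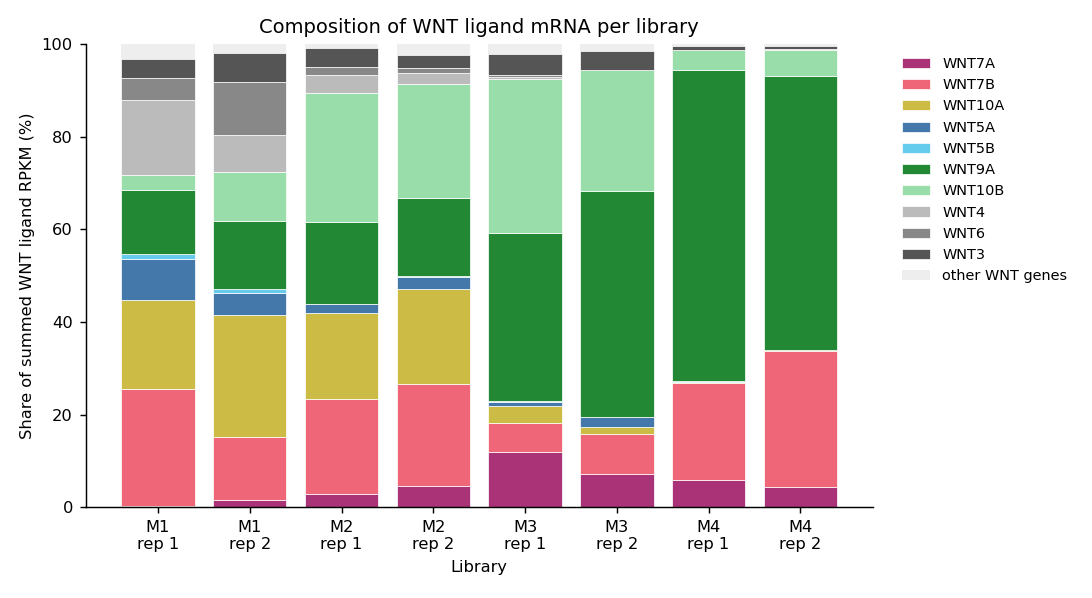
Share of each WNT ligand gene in the summed WNT ligand RPKM of each of the 8 libraries, in percent. Colours name the genes, and the pale top segment holds the remaining WNT genes. WNT10A fills 18.6% to 26.2% in the M1 and M2 libraries and 0.217% in M4, where WNT9A and WNT7B fill most of the bar.

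The other WNT pathway genes were read from lists by role. Among 8 other ligand genes tested, WNT9A and WNT10B were higher and WNT4 and WNT6 lower in M3 against M1, where 8.02% of all genes were called higher and 5.51% lower. In M4 against M1, WNT9A was higher and WNT4 and WNT6 lower, where 9.48% and 11.2% of all genes were. Raw counts of WNT6 went from 52 and 99 (M1) through 20 and 7 (M2) to 3 and 0 (M3), and both M4 libraries held none. WNT6 passed the filter on low counts through M1, where it is high. Its lower calls in M3 and M4 therefore say nothing against the background share. WNT4, a ligand that acts downstream of progesterone in the mammary gland, stood at 5.63 and 2.32 CPM in M1 and 0.115 and 0.269 in M4 (log2 -4.39 ± 0.71, adjusted p = 0.00372). Its M3 against M1 value, -5.33 ± 0.76 (adjusted p = 0.00364), lost its call under the exchange. WNT10B, the paralog of WNT10A, was higher in M3 than in M1 (2.57 ± 0.51, adjusted p = 0.0125), where WNT10A was lower. That WNT10B call was lost without M3 replicate 2 (log2 fold changes of 2.02 to 3.48 with 1 library left out) and under the exchange (1.43). The M3 call of WNT6 was lost without M1 replicate 2 or M3 replicate 2 (-9.33 to -4.54), and both WNT6 calls and the M3 call of WNT9A (1.94) were lost under the exchange.

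Of 5 other antagonists tested, 1 was higher in M3 against M1, and 1 was higher and 2 lower in M4 against M1, beside 13.5% and 20.7% of all genes called. TRABD2A, a metalloprotease that cleaves WNTs, was higher in M3 (3.03 ± 0.20, adjusted p = 0.000329) and in M4 (2.52 ± 0.20, adjusted p = 0.000264) than in M1. Both TRABD2A calls were kept without any 1 library. In M2 against M1, TRABD2A passed on adjusted p (0.039) but not on size (0.92 ± 0.19). SOSTDC1, a secreted WNT and BMP antagonist, was lower in M4 than in M1 (-5.09 ± 0.92, adjusted p = 0.00682). Its 2 M1 libraries stood at 4.57 and 35.0 CPM, and the call was lost without M4 replicate 2 (-5.90 to -2.98 with 1 library left out). KREMEN1, a receptor for DKK1, was 2.09-fold lower in M4 than in M1 (-1.06 ± 0.16, adjusted p = 0.00259), with the call lost without M1 replicate 2 or M4 replicate 1, where its size went under the threshold (-0.95 at the smallest).

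Among 15 receptors and co-receptors tested, 6 were lower in M4 than in M1 (FZD1, FZD2, FZD4, FZD7, FZD10 and PTK7) and 1 was higher (FZD8). The other 8 did not pass, where 11.2% of all genes were lower and 9.48% higher. FZD10 had no count in any M3 or M4 library, against 34 and 25 for M1 and 24 and 15 for M2. It passed the filter on low counts through M1 and M2, where it is high. The lower calls of FZD10 in M3 and M4 therefore say nothing against the background share. FZD7, a Frizzled receptor of basal mammary cells, stood at 16.9 and 32.7 CPM in M1 and 3.58 and 6.99 in M4 (-2.23 ± 0.43, adjusted p = 0.00760). FZD1 (-2.05 ± 0.33, adjusted p = 0.00367) and FZD7 kept their calls without any 1 library, FZD1 losing its call under the exchange (-1.40). FZD4 (-1.71 ± 0.38, adjusted p = 0.0129) lost its call without M1 replicate 2, M4 replicate 1 or M4 replicate 2 (-2.10 to -1.16 with 1 library left out). PTK7 (-1.38 ± 0.26, adjusted p = 0.00711) lost it without M1 replicate 2 or M4 replicate 2 (-1.74 to -0.88), and so did FZD2 (-1.56 to -1.13). FZD8 was higher in M3 (2.09 ± 0.32, adjusted p = 0.00470) and in M4 (1.68 ± 0.32, adjusted p = 0.00685), and lost both calls under the exchange. In M3 against M1 only RYK and FZD8 (higher) and FZD10 (lower) passed among the 15, beside 8.02% of all genes higher and 5.51% lower. RYK lost its call without M1 replicate 1 (0.89 to 1.24) and under the exchange (1.01), which also took the M4 calls of FZD2 (-1.08) and FZD4 (-1.15) and the M3 call of FZD10. The fit without both libraries in question took the M4 calls of KREMEN1, PTK7, FZD2 and FZD4 and the M3 call of FZD10.

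In the list of 25 intracellular genes, 2 were higher and 2 lower in M4 against M1, where 9.48% of all genes were higher and 11.2% lower. DVL1, which relays the signal from Frizzled, rose (1.82 ± 0.16, adjusted p = 0.000355), as did GSK3B, a kinase that marks beta-catenin for destruction (1.60 ± 0.18, adjusted p = 0.000882). The co-repressor genes TLE2 (-4.57 ± 0.69, adjusted p = 0.00287) and TLE3 (-1.19 ± 0.21, adjusted p = 0.00552) fell, the second losing its call without M4 replicate 1 (-1.52 to -0.90). TCF7L1, a mostly repressive TCF, was higher in M3 against M1 (3.00 ± 0.49, adjusted p = 0.00607), a call lost under the exchange (2.72), and not past the test in M4 (0.71 ± 0.47, adjusted p = 0.285). Of 9 other target genes tested, CCND1, the gene of cyclin D1, was higher in M4 than in M1 (1.18 ± 0.19, adjusted p = 0.00377) and TNFRSF19 lower (-4.28 ± 1.07, adjusted p = 0.0219), and 7 did not pass, beside the 20.7% of all genes called there. The TNFRSF19 call was lost when any 1 library of M2 or M4 was left out (-5.16 to -1.48), under the exchange (-2.92), without both libraries in question and when M1 and M4 were fitted alone. Each list had 0 calls in M2 against M1 by edgeR, with 3 of the ligands, 3 of the antagonists, 3 of the receptors, 2 of the intracellular genes and 1 of the targets at an unadjusted p under 0.05, and with 2 ligands and 1 intracellular gene called by DESeq2. The R-spondin list (2 tested) and the secretion genes PORCN and WLS had 0 calls in M4 against M1 by edgeR and by DESeq2. WLS passed on adjusted p there (0.0464 by edgeR) but not on size (-0.60 ± 0.19). In M4 against M3, WLS was called lower by edgeR (-1.13 ± 0.19, adjusted p = 0.00963), where 6.3% of all genes were lower. That call was lost without either M4 library (-1.22 to -1.04 with 1 library left out), and PORCN was not called there.

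**Figure D5:**
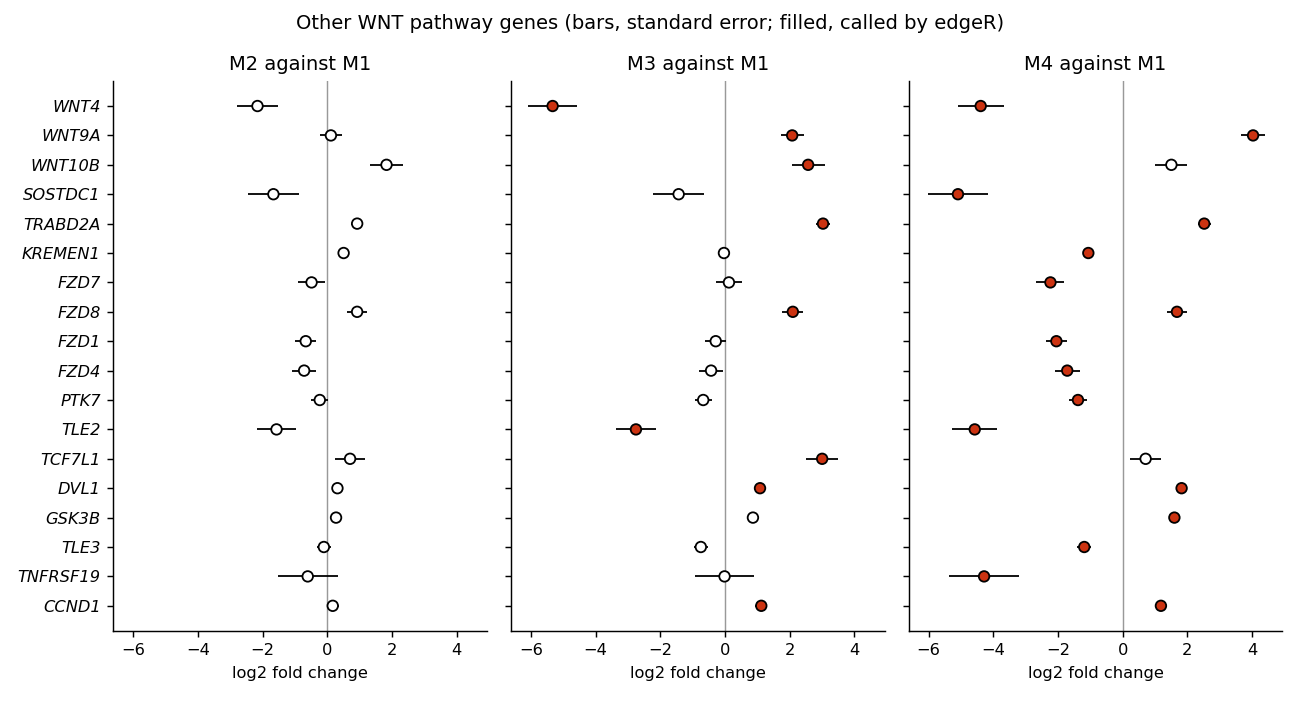
Log2 fold change of 18 other WNT pathway genes in M2, M3 and M4, each against M1, with bars for the standard error (edgeR, 2 replicates per line). Filled points are calls (adjusted p under 0.05, fold change over 1 on the log2 scale in size). M2 has no filled point, and in M4 the filled points run from SOSTDC1 at -5.09 to WNT9A at 4.03.

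WNT5A, WNT7A and WNT10A had the widest range of line means, and the tested genes most like them over the 8 libraries were found by Pearson correlation of log2 CPM. For WNT7A these were KIAA1549L (r = 0.989), CD44 (0.986) and HMGA2 (0.984). For WNT10A they were IL1R1 (0.993), NEBL-AS1 (0.993) and ENSG00000267811 (0.992), the last 2 of them at mean levels of 0.148 and 0.115 CPM. For WNT5A they were ENSG00000261578 (0.993), HAGHL (0.991) and TMEM117 (0.987). The 8 points fall in 4 lines of 2 libraries each and were searched over all tested genes, so the coefficients describe a shared order of lines and carry no test.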

How the data were processed

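The authors trimmed paired-end reads with Trimmomatic, aligned them to hg19 with STAR and deposited 1 table of RSEM expected counts per gene (GENCODE annotation), with no normalization. Tool versions are not given in the sources used here. The expected counts (12.8% of values not whole) were rounded. Genes passing filterByExpr (18431) were fitted in edgeR 4.0.16 (R 4.3.3) with TMM scaling, 1 coefficient per line over 8 libraries, and the robust quasi-likelihood F test, with Benjamini-Hochberg adjustment over all tested genes. A call needs adjusted p under 0.05 and an absolute log2 fold change above 1. The SE is the log2 fold change divided by the root of F. The replicates are described as biological, with no further detail on their source. CPM uses TMM library sizes, and RPKM merged exon lengths from GENCODE 44, a later release than the one the authors counted with. Symbols were matched for 94.7% of genes with a count. DESeq2 1.42.0 and the other alternatives (library sizes, filters, replicate block, left-out libraries, the exchanged assignment, 2 lines alone) are in the closing section. The fit was tested on simulated data with 200 genes changed 4-fold in M4. Over 17837 genes, M4 against M1 then gave 110 of the 200 as calls in the right direction and 11 false calls. The simulation gave all lines the same dispersion for a gene. The real replicates differed in spread between lines (chi-square per degree of freedom 6.65 in M2 and 295 in M3), which the simulation did not test. Counts near 0 limit WNT5B, AXIN2, DKK3 and WNT5A in M4.

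Named genes were the 10 genes, HRAS, up to 5 genes of each list by size of change against M1 (called, with at least 100 counts in both libraries of the higher line), and the 3 most correlated genes for the 3 widest-ranging members. Genes of lists that are named only for a count were named after their values were seen. The members and lists were chosen with earlier results of these data known.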

Additional observations from a re-analysis of the deposited data

How the results depend on the processing

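Of the member changes under the alternatives, 749 kept direction and side of the threshold, 46 lost a call, 31 gained one and 21 changed sign. Calls kept in all alternatives run were SFRP1 and WNT7B in M4 against M3, WNT5A and WNT7A in M4 against M1, and WNT10A in M3 and M4 against M1 and in M4 against M2. The number of genes called over the whole table changed more. DESeq2 gave 1325 in M2 against M1 (622 by edgeR) and 1488 in M3 against M2 (765), and with no filter on low counts edgeR gave 1788, 1880 and, in M4 against M3, 2916 (1897). With no filter, DKK1 in M2 against M1 kept its size (-1.39) while its adjusted p went from 0.216 to 3.22e-10. M1 replicate 2 (23.8 CPM) lay close to the M2 libraries (26.9 and 26.2), unlike M1 replicate 1 (116). Calls gained only with no filter therefore carry little weight. Fitting M1 and M3 alone gave 1659 (2494). With adjusted p alone and no fold threshold, the counts were 3918 in M3 against M1, 5779 in M4 against M1 (3821), 4096 in M4 against M2 (2567) and 3091 in M4 against M3.

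Under the exchanged assignment of M1 replicate 2 and M2 replicate 1, edgeR called 0 genes in M2 against M1 (315 at an unadjusted p under 0.05), 219 in M3 against M1, 1559 in M4 against M1, 214 in M3 against M2 and 830 in M4 against M3. Without both of those libraries the counts were 29 in M2 against M1, 1625 in M3 against M1, 2425 in M4 against M1, 277 in M3 against M2 and 1418 in M4 against M2. Leaving out 1 library gave 0 (without M2 replicate 2, with 2251 at an unadjusted p under 0.05; 2 without M2 replicate 1) to 876 in M2 against M1, 1752 to 2298 in M3 against M1, 2425 (without M4 replicate 2) to 3742 in M4 against M1, 83 to 1073 in M3 against M2 (83 without M2 replicate 2, 87 without M2 replicate 1, 483 without M3 replicate 2), 927 to 2834 in M4 against M2 (927 and 964 without an M2 library, 1446 and 1665 without an M4 library) and 598 to 2197 in M4 against M3 (598 without M4 replicate 1, 1029 without M4 replicate 2, 1211 without M3 replicate 1, 1195 and 1199 without an M2 library). Where 1 library was left in a line, it was assumed to vary like the others. The causes were not tested.

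Sign changes concerned values that were not calls with all libraries. Under the exchange these were WNT5A (-0.51), WNT5B (-1.74) and AXIN2 (-1.06) in M3 against M2, and WNT10A (0.13) and LEF1 (0.14) in M2 against M1. Without both libraries in question they were AXIN2 in M4 against M2 (1.00) and LEF1 in M2 against M1 (0.14). With 1 library left out, the ranges that crossed 0 were -2.12 to 0.16 for DKK1, -0.56 to 0.60 for WNT7B and -0.20 to 0.19 for LEF1 in M2 against M1, -1.05 to 1.23 for DKK1 in M3 against M1, -1.20 to 0.96 for WNT5A, -0.03 to 1.05 for WNT5B and -0.84 to 2.78 for AXIN2 in M3 against M2, -4.06 to 0.18 for WNT5B and -2.30 to 0.99 for AXIN2 in M4 against M2, and -0.36 to 0.72 for LEF1 in M4 against M3.

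Replicate numbers did not pair the libraries (correlations of same-numbered deviations from -0.02 to 0.12). The replicate block changed no call among the 10 genes, turned LEF1 in M2 against M1 to 0.02, and gave 587, 2338, 3628, 675, 2462 and 1756 calls in M2, M3 and M4 against M1, M3 and M4 against M2, and M4 against M3. Per-length ranking changed the order of the members in 12 of 40 placements. Depth limits WNT5B, AXIN2 and DKK3 in every line and WNT5A in M4.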
